A study of Mus musculus with 8 samples.

Results

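The accessible regions described here were found in mouse cardiac progenitor cells after induction of GLI1 and in neither of the other peak lists of the study. The assay was ATAC-seq, which marks open chromatin by the places where a transposase can insert sequencing adapters. The cells were made in culture from embryonic stem cells of the line GLI1-FTA on the A2Lox.cre background, and every group carries that line. The 8 libraries form 3 groups: 2 untreated libraries at day 5 of differentiation (D5), 3 untreated libraries at day 7 (D7), and 3 D7 libraries that received doxycycline at 500 ng/ml for 48 hours, from D5 to D7, to overexpress GLI1. No control library received doxycycline, so the effects of the drug and of GLI1 cannot be told apart.

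Each group has 1 deposited peak list that pools its libraries. Overlapping peaks of a list were merged on chromosomes 1 to 19, which left 42192 regions with GLI1, 37973 in the D7 control list and 38281 at D5. A GLI1-only region is a merged region of the GLI1 list that shares 0 bases with any region of the other lists. There were 14330 such regions, or 34.0% of the GLI1 list. The mirror class, found in the D7 control list alone, held 11035 regions (29.1% of that list). The ratio of these classes was 1.30, but it was 0.973 with lists of equal length. Equal length was reached by dropping the regions of lowest −log10 q from the longer lists, which by itself brings both classes closer in number. The greater number of GLI1-only regions was not seen at equal length, and its cause was not tested. The regions were chosen by the presence or absence of peaks in these lists, so the counts and folds below are descriptions without a test. There are no replicate lists, and intervals cover counting error only. Fold is the authors' enrichment of a peak summit over the peak caller's background, in its own list. Read totals were not used here, so depth is unknown.

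Hedgehog proteins bind the receptor Ptch1, which releases Smo and lets the GLI transcription factors act on DNA. GLI1 is an activator at the end of that pathway, and Ptch1, Hhip and Gli1 are widely used as its target genes. In the early heart the pathway is best known in the second heart field, whose progenitors lengthen the heart tube at both poles.

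Accessible regions at the marker genes of cardiac progenitors (Gata4, Gata6, Nkx2-5, Isl1, Tbx5, Tbx20, Hand2 and Mef2c) were present at 8 of 8 genes in each list, with 1 to 11 regions a gene in the GLI1 list. Their sums were 31 with GLI1, 30 in D7 control and 50 at D5. At the cardiomyocyte genes Tnnt2, Myh6, Actn2 and Myl7 the GLI1 list held 1 region in all, at Actn2, while the D7 control list held 8, at 4 of 4 genes. The D5 list held 5, at 2 of these 4 genes. Other contractile genes had more regions with GLI1, such as Tpm1 (11 and 7), Tnni1 (4 and 1) and Casq2 (4 and 1), and all 22 genes of that list had 38 and 42. Foxa2 and Sox17, used as endoderm markers, had 19 regions with GLI1, 4 in D7 control and 12 at D5. Of the 19 with GLI1, 12 were GLI1-only. The endothelial genes Kdr, Cdh5 and Tek had 14 regions with GLI1, 13 in D7 control and 17 at D5. In the same order, the neural genes Sox1, Pax6 and Olig2 had 17, 13 and 12. The pluripotency genes Pou5f1, Nanog and Zfp42 had 4, 3 and 7. Regions at a gene do not measure its expression, and the part of a changed mix of cells in the results below was not tested.

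Few GLI1-only regions overlap the window around a gene start, and sequences from 4 such windows are printed here. Each sequence is the 250 bases before the start on the gene's strand, from RefSeq on GRCm38.p6, the assembly also called mm10. Capitals mark a match to a searched motif. The Ihh sequence is shown because Ihh is a Hedgehog ligand gene with a GLI1-only region over its start, and it lies at chr1:74951673-74951922 on the minus strand with no match. The noncoding gene Gm30826 (chr19:53492650-53492899, minus strand) and F11 (chr8:45262032-45262281, minus strand) had the highest folds among such windows. The gene 1700016P04Rik (chr6:13413087-13413336, plus strand) held the only exact GLI motif. The Ihh and F11 sequences lie wholly within their GLI1-only regions. At Gm30826 227 of the 250 bases do, and at 1700016P04Rik 169, and these regions do not reach the gene start.
Ihh: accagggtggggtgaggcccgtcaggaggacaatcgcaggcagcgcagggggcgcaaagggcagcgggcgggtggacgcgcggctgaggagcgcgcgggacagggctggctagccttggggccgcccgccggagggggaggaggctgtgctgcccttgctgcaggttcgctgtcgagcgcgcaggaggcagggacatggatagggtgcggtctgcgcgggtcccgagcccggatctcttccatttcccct
Gm30826: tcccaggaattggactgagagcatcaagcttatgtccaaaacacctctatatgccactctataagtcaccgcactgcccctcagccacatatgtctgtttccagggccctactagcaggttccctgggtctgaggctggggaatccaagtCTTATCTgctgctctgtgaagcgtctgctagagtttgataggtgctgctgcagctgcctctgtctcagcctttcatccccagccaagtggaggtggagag
F11: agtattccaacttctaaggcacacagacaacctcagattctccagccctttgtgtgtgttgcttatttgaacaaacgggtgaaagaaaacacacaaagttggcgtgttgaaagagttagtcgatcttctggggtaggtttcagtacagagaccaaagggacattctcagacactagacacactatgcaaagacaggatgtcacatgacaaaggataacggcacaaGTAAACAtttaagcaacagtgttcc
1700016P04Rik: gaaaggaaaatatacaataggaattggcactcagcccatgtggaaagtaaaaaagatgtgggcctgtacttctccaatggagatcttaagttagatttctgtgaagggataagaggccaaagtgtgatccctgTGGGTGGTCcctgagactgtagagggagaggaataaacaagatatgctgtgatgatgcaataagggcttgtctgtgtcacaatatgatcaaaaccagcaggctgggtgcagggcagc

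Most GLI1-only regions were weak and narrow. Their fold ran from 2.46 to 62.5 with a median of 3.86 (quartiles 3.16 and 4.74), against a median of 4.91 for regions of both D7 lists absent at D5 and 19.7 for regions in all lists. The median width was 250 bp, and 4203 regions (29.3%, Wilson 95% interval 28.6 to 30.1) had the smallest width of 200 bp. A single peak made up 13016 of them, or 90.8%. In the mirror class the median fold was 3.78 and the median width 251 bp, so the bulk of both classes had nearly the same size.

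The share of the GLI1 list that was GLI1-only went down with fold. It was 71.7% below a fold of 3 (2763 of 3854 regions), 47.4% between 4 and 5, and 19.8% between 7 and 10. At a fold of 5 or more there were 3125 GLI1-only regions (13.6% of the GLI1 list at that fold), at 10 or more 552 (4.12%), and at 20 or more 74 (0.898%). The control list gave 2675, 307 and 13 mirror regions at those folds, or 11.9%, 2.31% and 0.166% of its regions. The shares of both lists were close below a fold of 3 (71.7% and 70.8%) and between 5 and 10. They differed more between 3 and 4 (61.4% and 57.0%), between 4 and 5 (47.4% and 41.7%) and between 10 and 15 (11.2% and 7.38%). The lowest fold in the D7 control list was 2.52.

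**Figure D1:**
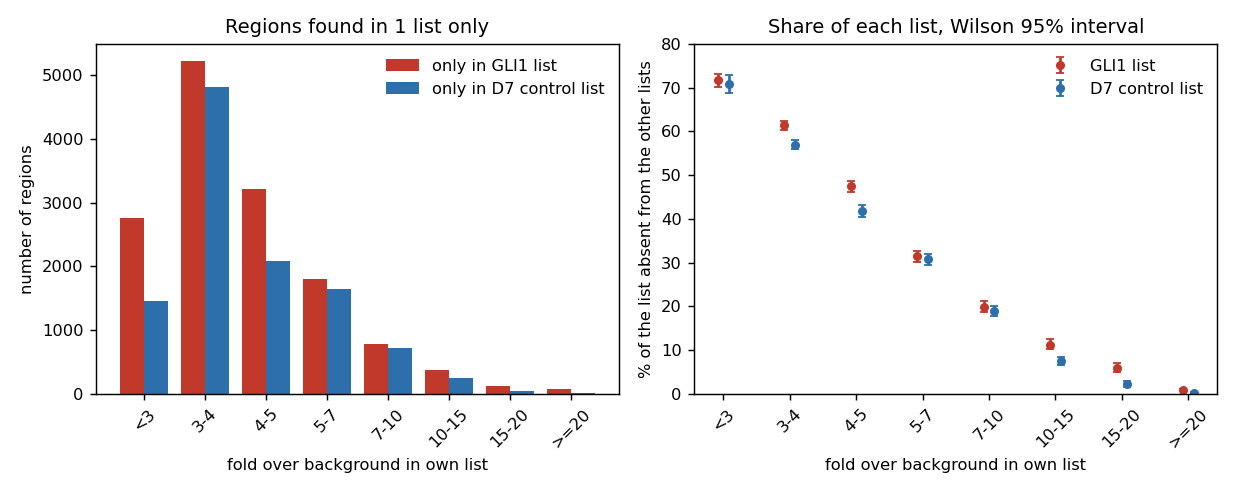
Number of regions found in 1 list only (left; bars) and their share of the list (right; points with Wilson 95% intervals) by fold over background in the region's own list. The GLI1-only share is 71.7% below a fold of 3 and 0.898% at 20 or more, where 74 GLI1-only and 13 control-only regions stand.

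Regions just inside and just outside the rule had similar folds. There were 61 GLI1-only regions with a gap of at most 10 bases to a region of another list, with folds from 2.46 to 6.14 (median 3.51). The 48 GLI1-list regions kept out by an overlap of 1 to 10 bases had folds from 2.46 to 5.97 (median 3.34). The median gap of a GLI1-only region was 12.0 kb to the nearest D7 control region and 13.4 kb to the nearest D5 region. A control region lay within 500 bases of 1974 GLI1-only regions, or 13.8%.

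The 15 GLI1-only regions with the highest −log10 q reached folds between 30.4 and 62.5 and were 823 to 2332 bp wide. The first, with a fold of 62.5, lies inside Il16, which encodes a cytokine, at chromosome 7, 83737213 to 83739260, and its nearest control region was 55.3 kb away. The second (chromosome 13, 63979735 to 63981230, fold 59.7) lies 77.8 kb from Hsd17b3 in the wider surroundings of Ptch1. The third (chromosome 1, 75040016 to 75042347, fold 54.4) lies inside Nhej1, the neighbour of Ihh. Whether these lie in exons or introns is not stated, because the annotation used gives gene intervals and starts only.

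Others of the 15 were inside genes too. These were Nav2 (fold 35.6), the phosphatase subunit gene Ppp2r5c (33.7), Myo10, which encodes an unconventional myosin (31.4), and Sh3pxd2a (30.4). The region nearest to Ercc6l2 had a fold of 39.7, that nearest to Dact1, a regulator of Wnt signalling, 35.1, and that nearest to Arhgap28 33.5. At Foxf1, a forkhead gene of the mesenchyme, the region with a fold of 31.9 lay 10.9 kb outside the gene. It was 1 of 6 GLI1-only regions nearest to Foxf1, which had 0 control-only regions, and 1 of 4 with a fold of at least 14.0 that lay within 200 kb of each other. The remaining 4, with folds of 33.2 or more, lay 184 to 333 kb from any coding gene. None of the 15 had its summit within 1 kb of a gene start, and 2 lay within 2.5 kb of a control region.

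Among Hedgehog pathway genes, the ligand gene Ihh stood in a row of GLI1-only regions that no other GLI1-list region interrupted. From 74880866 to 75042347 on chromosome 1, a span of 161 kb, all 10 regions of the GLI1 list were GLI1-only. At the Ihh start lay a region of 1133 bp (74950905 to 74952037) with a fold of 8.25, whose nearest control region was 35.0 kb and nearest D5 region 65.0 kb away. Another region, inside Ihh, had a fold of 4.04. Between Ihh and Nhej1, a region 8.21 kb upstream of the Ihh start had a fold of 8.43, and the next one 5.79. The strongest, inside Nhej1, was 89.7 kb from that start. Nhej1 encodes a DNA repair factor, and its introns are known to carry enhancers of Ihh. The control list had 2 regions in this stretch, both of 200 bp, with folds of 3.60 and 3.06. A D5 region also lay in it (74885680 to 74885856, fold 4.30). One of the weak regions (74900468 to 74900689, fold 3.69) covers the microRNA gene Mir375.

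The receptor gene Ptch1 and its surroundings held the longest row of stronger regions. Of the 15 GLI1-list regions nearest to Ptch1, 8 were GLI1-only, with folds from 3.16 to 15.4, and the D7 control list had 3 regions of its own there. Within 25 kb of the gene the counts were 3 and 3, so the difference came from regions farther out. The start of Ptch1 itself is not among them, since it was open in both D7 lists, but the fold there was 55.8 with GLI1 against 5.22 and 3.60 for the 2 control regions it overlaps. Beyond the gene, from 63641570 to 63732336 on chromosome 13, all 11 regions in 90.8 kb were GLI1-only, and 4 of them had a fold of 10 or more: 15.4, 21.6, 10.4 and 12.8. Farther on, beyond Ercc6l2, further GLI1-only regions had folds of 39.7, 10.7 and 59.7, at 342, 345 and 407 kb from the Ptch1 start. In the 510 kb drawn in the map of the locus, 28 of 40 GLI1-list regions were GLI1-only, 7 with a fold of at least 10. The D7 control list had 14 regions there, of which 5 were its own, with a highest fold of 6.84.

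**Figure D2:**
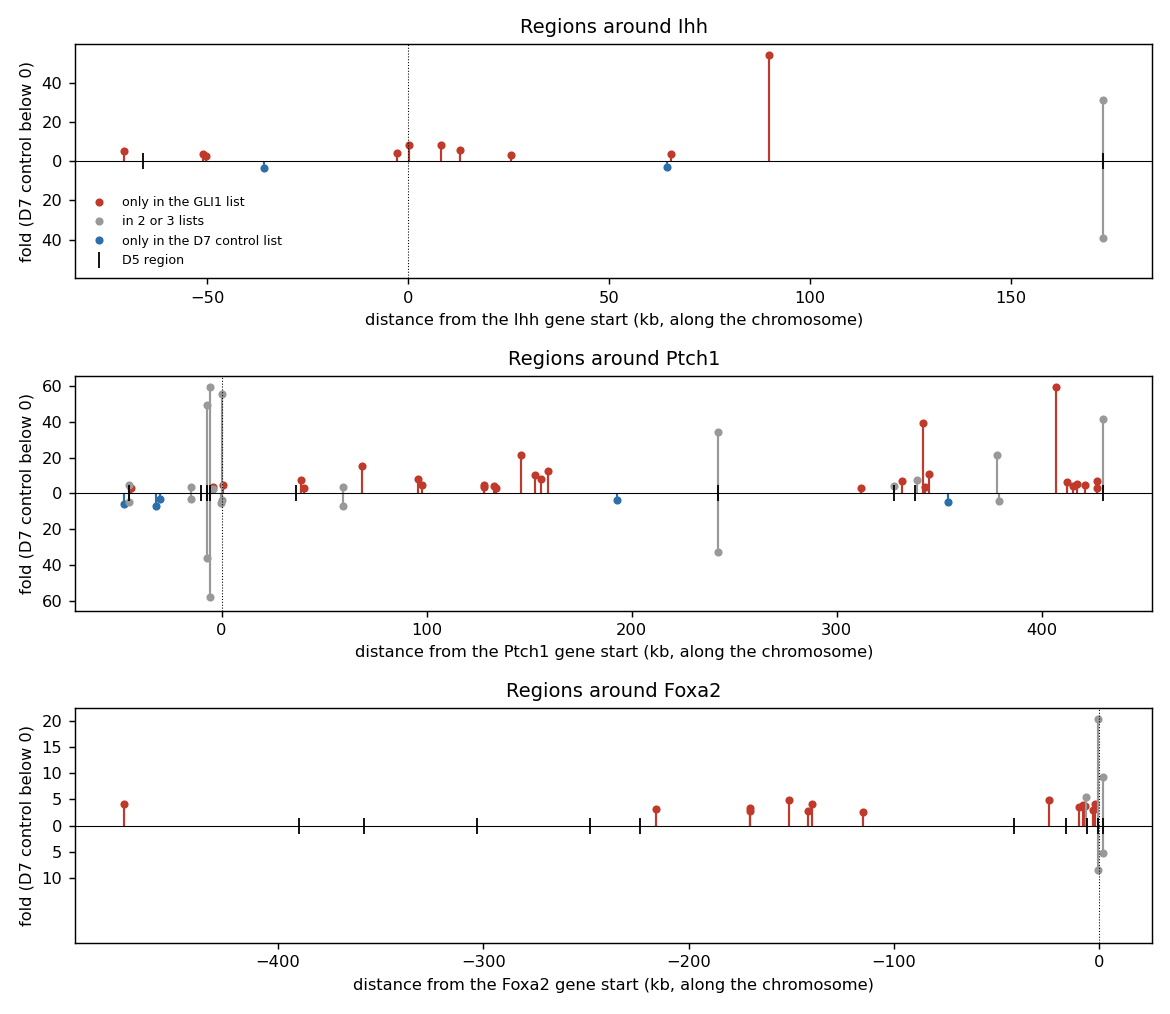
Regions around Ihh, Ptch1 and Foxa2. The horizontal axis is the distance of the summit from the gene start in kb, and the height is the fold in the GLI1 list (upward) or in the D7 control list (downward); red and blue are regions of 1 list only, grey those in more lists, and black ticks mark D5 regions. In the stretch drawn around Ihh, 10 GLI1-only regions reach a fold of 54.4. Around Ptch1, 28 reach 59.7, at a summit 407 kb from its start. Around Foxa2, none of the 14 drawn exceeds 4.91, while beyond the stretch a region nearest to Foxa2 has a fold of 7.72.

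Gli1 itself, the induced gene, had 6 GLI1-only regions of its 8 regions, all inside the gene and with folds from 9.30 to 19.3. The 5 with a fold of at least 10 had their summits between 127331652 and 127337086 on chromosome 10. They lay among regions shared with the control list, 0.382 to 2.67 kb away. Whether these reads came from the gene's own locus or from the induced copy was not tested. At Hhip, whose protein binds and holds back Hedgehog ligands, 7 regions were GLI1-only and 0 control-only, with folds from 2.63 to 6.67, and 4 of the 7 were inside the gene. Gli2, which encodes the main activating GLI factor of embryos, had 6 and 1, with folds up to 6.14. Gli3, which encodes mainly a repressor, had 4 and 3, of which 1 reached a fold of 10, and was even at 3 and 3 within 25 kb.

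Other parts of the pathway showed little of this. Smo had 2 GLI1-only regions with folds of 3.51 and 3.69, and Sufu, which encodes a cytoplasmic inhibitor, had 4 against 2. The co-receptor genes had fewer GLI1-only than control-only regions, with 0 and 5 at Gas1, 1 and 2 at Boc, and 4 and 5 at Cdon. Within 25 kb the counts at Cdon turned to 4 and 3, and those at Gas1 were 0 and 2. Shh and Dhh, the other ligand genes, had 0 GLI1-only regions and 1 control-only region each. Across 25 pathway genes, 52 of 139 GLI1-list regions were GLI1-only (37.4%, 29.8 to 45.7), with a median fold of 4.04. Over all regions within 100 kb of a coding gene the share was 32.1% and the median fold 3.86. Of the 52 regions, 7 had a fold of at least 10, and 5 of these 7 were in Gli1.

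The longest row of all lay beside Foxa2, which encodes a pioneer factor of endoderm and floor plate. Here 12 consecutive GLI1-list regions on chromosome 2, from 147571650 to 148040249, were GLI1-only, but every fold lay between 2.63 and 4.91. Foxa2 had 9 GLI1-only and 0 control-only regions within 100 kb, with folds from 2.98 to 7.72, and 9 regions at D5. The next rows held 11 regions each, at Slc16a7 and Tafa2 (folds up to 4.91) and at Dlg2 and Ccdc90b (up to 5.44). The control list had rows of up to 11, of which the longest was near Glrx3. In all, 232 rows of 5 or more GLI1-only regions held 1358 of them, against 143 rows with 848 regions in the control list.

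Counted by nearest coding gene within 100 kb, 6566 genes had at least 1 GLI1-only region, and 3747 of these had only 1. More GLI1-only than control-only regions were found at 4671 of 14866 genes with a D7 region (31.4%), and fewer at 3018 (20.3%). These totals over all genes come from the same lists of unequal length and were not recomputed for lists of equal length. The counts at 52 named genes were, among the alternatives given at the end. At Adgrv1, an adhesion receptor gene, 14 were GLI1-only and 0 control-only. Dlg2 encodes a scaffold protein of synapses and had 16 and 2. Foxp1, a forkhead gene needed in heart development, had 18 and 5, of which 2 reached a fold of 10. At Ebf1, which encodes a B cell and mesenchyme factor, there were 11 and 0, the highest at a fold of 14.2 inside the gene (chromosome 11, 44916889 to 44917696). Erg, an endothelial ETS factor gene, had 9 and 1, with folds of 15.1 and 10.9 at its strongest regions.

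Further genes near the top of this order were Trabd2b (15 and 5), Magi2 and Mpped2 (each 11 and 2), Ccdc91 and Dync1i1 (each 9 and 0), Foxp2 and Tgfbr3 (each 11 and 3), Cdkal1 (10 and 2) and Pdzrn3 (9 and 1). Long genes collect more regions: Dlg2 spans 1973 kb and Magi2 1485 kb, and both had at most 2 GLI1-only regions with a fold of 5 or more. By nearest gene end in place of nearest gene interval, Dlg2 had 2 and 1, Adgrv1 6 and 0, Foxp1 8 and 2, Magi2 2 and 0, Cdkal1 3 and 1, Dync1i1 3 and 0 and Foxp2 4 and 1. Within 25 kb Ccdc91 had 3 and 0 and Trabd2b 10 and 4. At a −log10 q of at least 5, Mpped2 had 6 and 1, Tgfbr3 6 and 3 and Ebf1 7 and 0. Pdzrn3, of 228 kb, had 5 GLI1-only regions with a fold of 5 or more. At the other end stood Pard3, a cell polarity gene (3 and 12), Prkce, which encodes a protein kinase C (5 and 14), Disc1 (3 and 10), Hspg2, which encodes perlecan (1 and 8), Zfp608 (1 and 8), and Eed, Frem1 and Slc13a3 (each 0 and 7). Within 25 kb Eed had 0 and 0 and Frem1 0 and 4, and by nearest gene end Prkce had 0 and 4 and Pard3 3 and 8. At a −log10 q of at least 5, Eed had 1 and 3 and Zfp608 0 and 4. Eed encodes a Polycomb subunit and Frem1 an extracellular matrix protein.

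**Figure D3:**
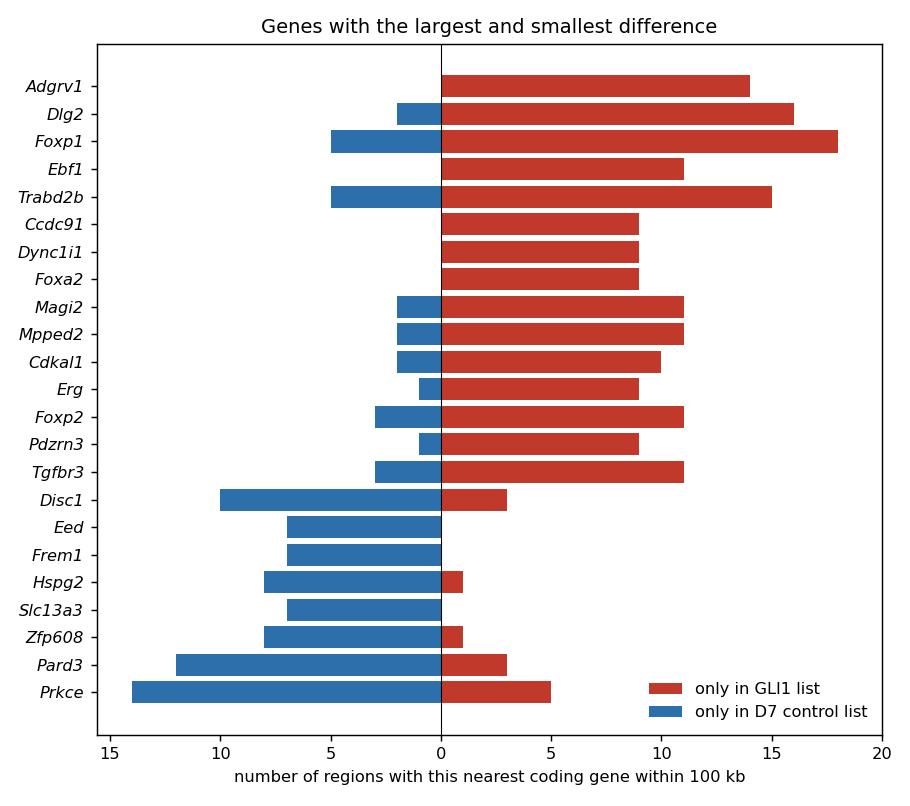
GLI1-only regions (red, to the right) and control-only regions (blue, to the left) for the 15 genes most in favour of the GLI1 list and the 8 most in favour of control, counted by nearest coding gene within 100 kb. Foxp1 has the most GLI1-only regions (18 against 5), and Prkce has the most control-only regions of those drawn (14 against 5).

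Gene lists were compared by the share of their GLI1-list regions that were GLI1-only, beside the 32.1% over all genes. Forkhead genes had 84 of 186 (45.2%, 38.2 to 52.3), and 18 of 32 genes had more GLI1-only than control-only regions while 6 had fewer. Their control-only share was 23.2%, below the 26.9% over all genes in the D7 control list. Many of the 84 were at Foxp1 (18 of 31 GLI1-list regions), Foxp2 (11 of 13) and Foxa2 (9 of 13). The intervals treat regions at the same gene as independent. Second heart field genes had 52 of 126 (41.3%) and a control-only share of 20.8%. Tbx1, a gene of the pharyngeal heart field, had 8 GLI1-only regions, with folds from 2.98 to 4.56. Hand2, a cardiac bHLH factor gene, had 2 and 3, but 2 and 2 within 25 kb and 2 and 1 at a −log10 q of at least 5. Endoderm genes had 28 of 56 (interval 37.3% to 62.7%), with 9 each at Foxa2 and at Prox1, a lymphatic and liver factor gene that also had 4 control-only regions, and 0 of the 28 reached a fold of 10.

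Contractile genes had the highest share, 21 of 38 (55.3%), but their control-only share was also the highest, 47.6%. Tpm1, a tropomyosin gene, had 6 GLI1-only and 1 control-only region, with 2 at a fold of 10 or more, and 9 of 22 genes had fewer GLI1-only than control-only regions against 5 with more. Slc8a1, the gene of the sodium-calcium exchanger, had 3 and 4, which turned to 3 and 2 within 25 kb and also when a gap of 500 bases counted as shared. Cardiac transcription factor genes had 36 of 96 (37.5%) against a control-only share of 36.3%. Meis1, a TALE homeobox gene, had 6 and 3 regions (3 and 3 with that gap), and Prdm16 3 and 8. Endothelial and blood genes had 34 of 79 (43.0%) and a control-only share of 34.9%. Fli1, an ETS factor gene like Erg, had 0 and 3.

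The other lists were closer to the background or small. Primitive streak genes had 13 of 29 (44.8%), with Gsc, a homeobox gene of the organiser, at 5 and 1 and Lhx1 at 2 and 2, and pluripotency genes 11 of 28 (39.3%), among which Tfcp2l1 had 3 and 0 regions. Klf4, a reprogramming factor gene, had 0 GLI1-only and 2 control-only regions. Smooth muscle and fibroblast genes had 25 of 74 (33.8%), with the collagen gene Col1a2 at 4 and 2 and the homeobox gene Prrx1 at 1 and 4. Neural progenitor genes had 28 of 95 (29.5%), with Pax6 at 4 and 2 and Irx3 at 0 and 5. Paraxial mesoderm genes had 20 of 71 (28.2%), with Nkx3-2 at 4 and 0 and Sox9, the cartilage master factor gene, at 1 and 4 (1 and 0 within 25 kb). Housekeeping genes had 7 of 23 (30.4%), with Actb at 2 and 3. Median folds of the GLI1-only regions ran from 3.16 (housekeeping) to 4.21 among the 13 lists.

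**Figure D4:**
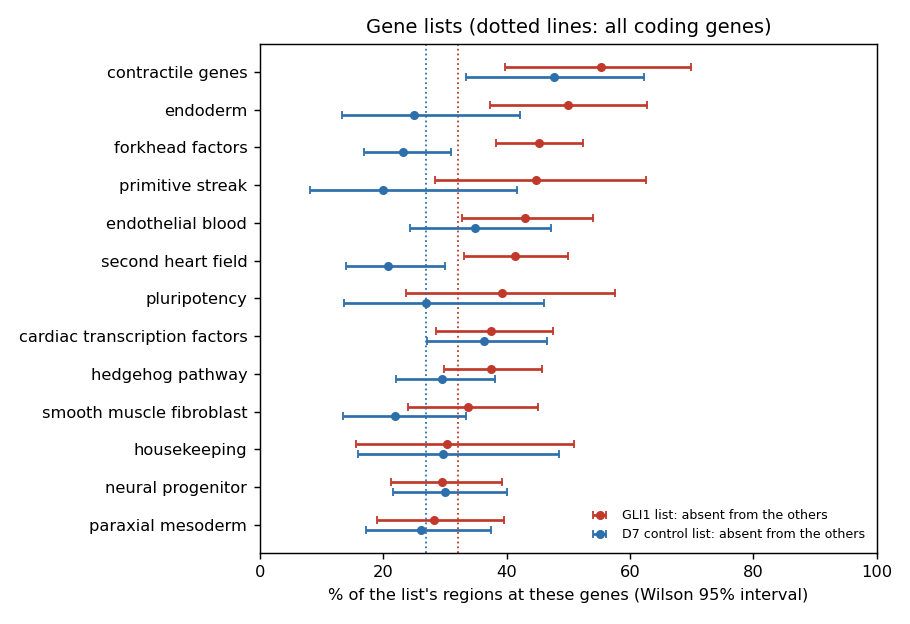
Share of the GLI1-list regions that are GLI1-only (red) and of the D7 control-list regions that are control-only (blue) at the genes of each list, with Wilson 95% intervals. Dotted lines mark all coding genes, at 32.1% and 26.9%. Forkhead genes are at 45.2% and 23.2%, and contractile genes at 55.3% and 47.6%.

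Position relative to genes was not part of the rule. Of the GLI1-only regions, 52.8% (52.0 to 53.6) had their summit inside a coding gene, 33.5% lay outside but within 100 kb, and 13.7% (13.2 to 14.3) lay farther away. Control-only regions were inside genes in 50.3% of cases, a difference of 2.55 percentage points (Newcombe 95% interval 1.31 to 3.79). They lay over 100 kb from a gene in 15.5%, a difference of −1.81 points (−2.69 to −0.932). Summits within 1 kb of a gene start made up 8.06% of GLI1-only and 7.34% of control-only regions, a difference of 0.713 points (0.0376 to 1.38) that turned to −0.223 (−0.917 to 0.471) with lists of equal length. Regions of both D7 lists absent at D5 were within 1 kb of a start more often, at 14.6%, a difference of −6.58 points (−7.43 to −5.75) for GLI1-only regions.

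Stronger GLI1-only regions lay less often near a gene start. Within 1 kb of a start were 9.03% of those with a fold below 5, 5.10% of those between 5 and 10, and 2.04% (11 of 539) at 10 or more. The difference between the last and the first group was −6.99 points (−8.04 to −5.33). The share over 100 kb from a gene went from 13.2% to 19.9%, a difference of 6.74 points (3.55 to 10.3). Control-only regions had nearly the same course, with 1.67% near a start and 20.2% over 100 kb at a fold of 10 or more. There the differences from GLI1-only regions were 0.369 (−1.99 to 2.21) and −0.268 points (−6.03 to 5.15), which do not show a difference and leave room for one of several points.

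**Figure D5:**
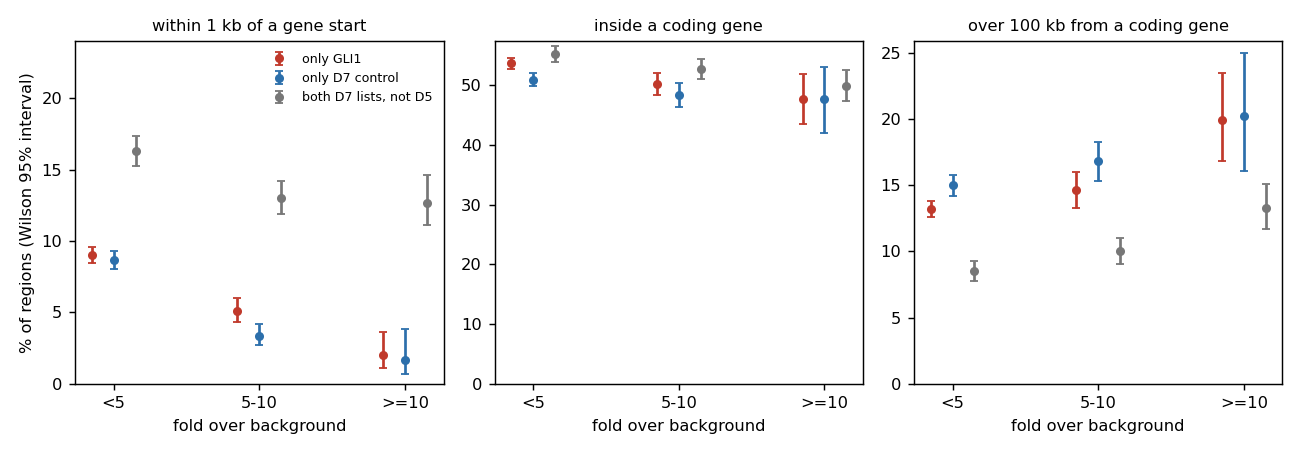
Percent of regions by position and by fold over background for GLI1-only (red), control-only (blue) and regions of both D7 lists absent at D5 (grey), with Wilson 95% intervals. Near gene starts the GLI1-only share goes from 9.03% to 2.04% while the grey class is at 12.7% or more in each group.

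GLI1-only regions were spread over all chromosomes examined. Their share of the GLI1 list ran from 29.5% on chromosome 7 (27.8 to 31.2) and 29.6% on chromosome 11 to 37.5% on chromosome 3 and 37.7% on chromosome 6 (35.8 to 39.7). The control-only share ran from 25.3% on chromosome 19 to 34.4% on chromosome 14. On chromosome 6 there were 42 GLI1-only regions and 11 control-only regions with a fold of 10 or more, and on chromosome 10 there were 32 and 9. Another GLI1-only region lay within 10 kb of 29.6% of them, and 25.5% of control-only regions had one of their own kind as near, in a class with fewer regions.

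Promoter windows that GLI1-only regions overlapped were few. Of 13565 promoter windows (250 bases before to 50 after a start) that overlapped any GLI1-list region, 355 overlapped a GLI1-only region (2.62%), and these belong to 332 genes, 195 of them protein-coding. The window of Gm30826 overlapped a region with a fold of 22.6. That of F11, which encodes a clotting factor of the liver, overlapped one with a fold of 20.2, 44.4 kb from the nearest control region. Next came Gm36213 (13.5), Gm39095 (13.3), Mtarc1, a mitochondrial enzyme gene (11.9), Gm36908 (11.9), Spag8 (11.4) and Btbd3 (10.7). The region at Mgst1 (10.5) lay only 0.104 kb from a control region. The Ihh window ranked lower, at 8.25, and that of Wnt2b, a Wnt ligand gene, at 6.67.

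Motifs were searched on both strands of these windows. The GLI motif GACCACCCA (reverse complement TGGGTGGTC) was in 1 of 355 windows (0.282%, 0.0497 to 1.58), that of 1700016P04Rik, where the match in the sequence above starts 117 bases before the gene start, inside a region with a fold of 3.51. Of all 31396 windows 0.255% held it, and of control-only windows 0 of 231, which allows up to 1.64%. The looser GACCNCCCA, which includes the former, was in 5 windows (1.41%) against 0.994% of all windows, a difference of 0.415 points (−0.399 to 2.26). Its other windows included those of Wnt2b and Rnh1, an inhibitor of ribonucleases.

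The forkhead motif TGTTTAC, which F11 carries 25 bases before its start, was in 14 of 355 windows (3.94%) and in 3.71% of all windows. At a −log10 q of at least 5 in every list it was in 8.12% of GLI1-only windows (5.90 to 11.1). That cut also drops weak peaks of the other lists, so these windows are another set and not the stronger ones among the 355. The comparison in the next sentence was not recomputed there. Windows under regions of the GLI1 and D5 lists that control lacked held it in 30 of 256 cases (11.7%), a difference of −7.78 points (−12.6 to −3.53) for GLI1-only windows. The GATA motif AGATAAG, present in the Gm30826 sequence, was also in 3.94%. Of all windows 3.03% held it, a difference of 0.911 points (−0.681 to 3.48), and of control-only windows 3.03%, a difference of 0.913 (−2.56 to 3.91). Windows under regions of all lists held it in 1.23%, a difference of 2.72 points (1.12 to 5.29). Windows with no region in any list held it in 4.34%. The median GC content was 54.0% in GLI1-only windows, 63.0% in windows of all lists and 47.3% in windows with no region, and its part in these shares was not tested. A match is a description of letters and not a binding site.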

How the data were processed

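ATAC-seq was analysed from 3 deposited peak lists, 1 per group, each pooled over its libraries. Per the submitters' processing notes, Bowtie2 2.3.2, SAMtools 1.5, Picard and MACS2 2.1.1 were used with build mm10, and peak settings are not given in the sources used here. Calling differed between lists: no D5 region was narrower than 124 bp and no D7 region narrower than 200 bp. One list says only "control" in its name and was taken as D7 because it pairs with the doxycycline list. The authors deposited for each peak a fold enrichment (a ratio over background), a −log10 q, a score equal to 10 times the −log10 q, and a summit offset in bases as the other column. These values were used to describe and rank peaks within a list. The 3 columns of −log10 p, 1 per list, were not used.

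Peaks were merged and compared with Python 3.11.15 and pandas 2.3.3. The merging and overlap steps were tested on simulated data and checked against bedtools 2.31.1. A region carries the values of its peak with the highest −log10 q. Summits were assigned to the nearest of 20661 protein-coding RefSeq gene intervals (GRCm38.p6) within 100 kb. Gene starts came from 31396 RefSeq promoter windows on 18 chromosomes, and chromosome 18 is not analysed here for starts. Shares carry Wilson and differences Newcombe 95% intervals. With 1 list per group no p-value between conditions is possible, and no library could be left out.

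Named genes were Gli1, Gli2, Gli3, Ptch1, Hhip, Foxf1 and Gas1, and the genes at the 15 regions with the highest −log10 q. Also named were the 15 and 8 genes with the extreme differences and the genes at the 5 longest rows. The same rule took the genes of the 8 strongest regions over a promoter window and the leading genes of each list. One further gene of this rule is not reported here. Others, Ihh among them, were chosen after their values were seen. The 13 gene lists hold 242 entries and 228 distinct genes, all matched, so some genes count in several lists. The regions and lists were chosen with earlier results of these data known. Alternatives were a −log10 q of at least 5, lists of equal length, 50% overlap, a gap of 500 bases, X and Y, unmerged peaks, the nearest gene end, 25 kb, and a looser GLI motif.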

Additional observations from a re-analysis of the deposited data

How the results depend on the processing

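No paired analysis was possible because libraries carry no lists of their own, and depth is unknown. The number of GLI1-only regions stayed within 1.5 times of 14330 in all 6 alternatives. Their share of the GLI1 list was 30.8% at a −log10 q of at least 5, 29.9% with lists of equal length, 35.7% at 50% overlap, 28.6% with a gap of 500 bases and 24.7% with unmerged peaks. With lists of equal length the ratio of GLI1-only to control-only regions went from 1.30 to 0.973. The median fold was 4.56 at the stricter −log10 q and 4.04 with equal lengths. The share within 1 kb of a start was 7.42% with equal lengths, 9.0% at 50% overlap and 4.42% with the gap, and its difference from control-only regions was −0.223 with equal lengths and 0.253 points at 50% overlap. The share inside genes was 51.9% at the stricter −log10 q and 51.2% with the gap, and that over 100 kb away 12.8% and 15.3%.

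Over all genes the GLI1-only share was 31.0% by nearest gene end, 30.6% within 25 kb, 29.1% at the stricter −log10 q, 28.3% with equal lengths, 33.9% at 50% overlap and 26.5% with the gap. Paraxial mesoderm genes were at 18.6% with equal lengths. With the gap, cardiac transcription factor genes were at 27.1% and neural progenitor genes at 20%. Forkhead (38.7% to 48.7%), second heart field (34.9% to 42.9%), Hedgehog (32.4% to 41.7%) and endoderm genes (37.5% to 55.4%) stayed above all genes in 6 of 6 alternatives. So did cardiac transcription factor, contractile, endothelial and blood, pluripotency and primitive streak genes, so most lists shared this trait. At the stricter −log10 q, which gives another set of GLI1-only windows, the GLI motif was in 0% of them and the forkhead motif in 8.12%. The cause of these changes was not tested. Of 312 alternative net counts for 52 named genes, 234 equalled the main value or stayed within 1.5 times of it. Another 73 moved by more than that or to or from 0. The other 5 changed sign: Cdon, Slc8a1 and Sox9 each to a net of 1 within 25 kb, Slc8a1 to 1 with the gap, and Hand2 to 1 at the stricter −log10 q. Results on position differences, strong regions and all genes were added after seeing the data.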
